A study of Bos taurus with 4 samples.

Results

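The genes described here are 4 regulators of the sterol regulatory element binding proteins (SCAP, SREBF1, SREBF2 and INSIG1) and 4 enzymes of cholesterol synthesis (HMGCS1, FDFT1, SQLE and CYP51A1), measured in early cattle embryos. They were given by symbol, and every probe that the array's annotation assigns to them was taken: 18 of 43794 probes, 8 for the regulators and 10 for the enzymes, and 8 of 15212 genes with a name on the array. In 7 of the 8 genes at least 1 probe passed the filter on dim probes (9 probes in all), and INSIG1 had none. The embryos were Holstein morulas and blastocysts, recovered 7 days after the onset of oestrus from superovulated cows inseminated with sexed semen. The high BHB group came from cows with more than 0.9 mmol/l of beta-hydroxybutyrate (BHB) in the circulation, a ketone body that accumulates when a cow draws on body fat after calving, and the low BHB group from cows with less than 0.9 mmol/l. Each of 4 Agilent two-colour arrays carried amplified RNA of 1 high BHB and 1 low BHB replicate. The high BHB RNA was in Cy5 on arrays 1 and 2 and in Cy3 on arrays 3 and 4. The labels call the arrays biological replicates but give no word on how many cows or embryos went into each, and p-values therefore reflect only how far these 4 arrays differed.

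SREBPs are transcription factors made as membrane proteins of the endoplasmic reticulum. When membrane sterols are scarce, the escort protein SCAP carries them to the Golgi, where proteases free the part that enters the nucleus and switches on the genes of cholesterol and fatty acid synthesis. When sterols are plentiful, INSIG proteins hold SCAP back and the same genes are transcribed less. In mammals the SREBF2 product acts mainly on cholesterol genes and the SREBF1 product mainly on fatty acid genes, and INSIG1 is itself a target. The pathway starts from acetyl-CoA, which cells can also make from BHB. Rapidly dividing embryos need sterol for new membrane.

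Among the genes described here, the 3 measured regulators were on the high BHB side on all 4 arrays, and none of the measured enzymes was. SCAP, SREBF1 and both measured probes of SREBF2 had log2 ratios of high over low BHB above 0 on all 4 arrays, with means of 0.53 to 0.81. SQLE was below 0 on all 4 arrays, with a mean of -0.66 ± 0.21 (SD, n = 4). FDFT1 averaged -0.57, most of it from array 4, HMGCS1 averaged 0.04, and the measured probes of CYP51A1 went opposite ways. None of the 9 probes passed an adjusted p of 0.05 in limma, where 2 of 16575 probes tested (0.0121%) did, both without a gene name. In these bulk samples fewer cells of a type and less RNA per cell cannot be told apart.

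The ratios stand on a modest signal. A probe counted as detected where its spot was brighter, in its channel, than the median plus 2 median absolute deviations of the negative controls. That threshold lay at 299 to 681 intensity units in the high BHB channels and at 229 to 404 units in the low BHB channels, and 33.4 to 40.5% and 33.6 to 48.6% of probes lay above it. Probes detected on at least 3 of 4 arrays in 1 group or the other were tested. The pairwise correlations of the arrays' log2 ratios across tested probes were 0.0987 to 0.375, and the SD of the ratios was 0.83, 0.44, 0.53 and 0.61 on arrays 1 to 4. The inner cell mass markers POU5F1, NANOG and SOX2 and all 8 trophectoderm markers were tested, so that both lineages of the blastocyst were measured.

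**Figure D1:**
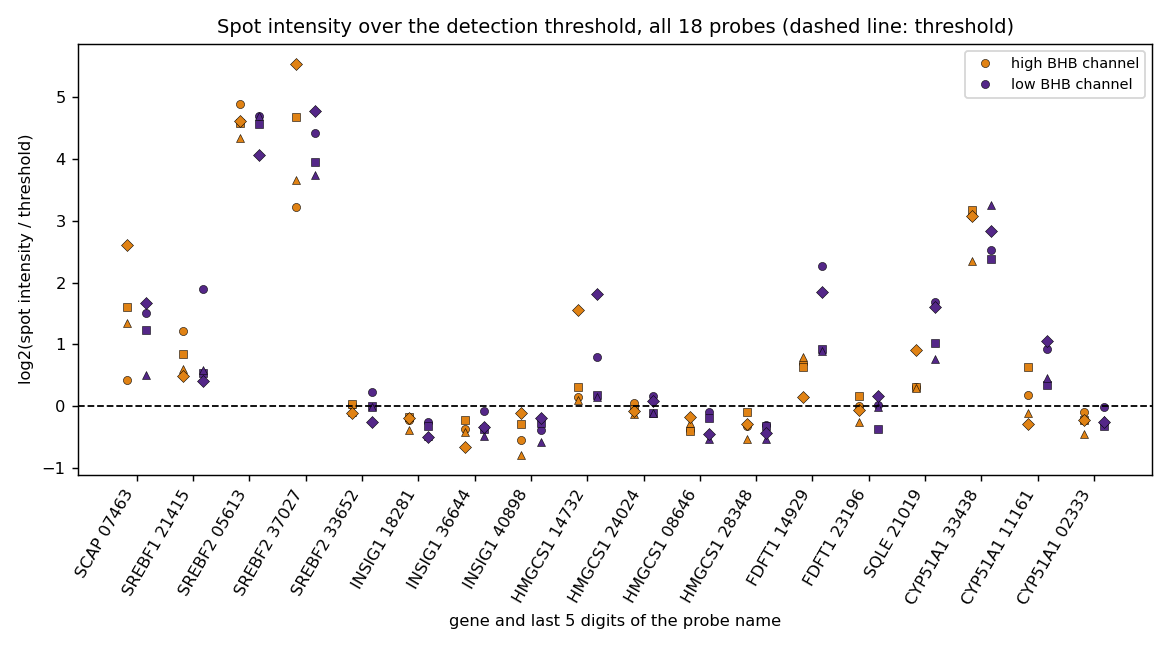
Log2 of spot intensity over the detection threshold of its channel for all 18 probes, with the high BHB channel left of the low BHB channel for each probe (circles, squares, triangles and diamonds: arrays 1 to 4; dashed line: the threshold). The 3 INSIG1 probes lie below the line in both channels on all arrays, and 2 SREBF2 probes lie far above it.

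SCAP, the sterol-sensing escort of both SREBPs, had 1 probe (EMBV3_07463), detected on all 4 arrays in both channels. Its spot intensities, before any correction for dye, were 617, 912, 1734 and 1903 units in high BHB and 960, 953, 544 and 728 units in low BHB on arrays 1 to 4. After background correction and loess, its log2 ratios of high over low BHB were 0.06, 0.64, 1.32 and 1.22. Arrays 3 and 4, with high BHB in Cy3, were both higher than arrays 1 and 2, and array 1 was close to 0. The mean was 0.81 ± 0.59 (SD, n = 4), which is 1.75-fold, with a 95% interval of 0.24 to 1.38 and an adjusted p of 0.257 in limma. Averaged within each dye orientation the log2 ratio was 0.35 on arrays 1 and 2 and 1.27 on arrays 3 and 4. The mean lay at the percentile 99.0 of all tested probes. By the same measure the other tested regulator probes lay at 92.2 to 95.3, the CYP51A1 probe EMBV3_33438 at 99.2 and SQLE at 6.15.

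SREBF1 encodes the SREBP that acts mainly on fatty acid genes, and it too had 1 probe (EMBV3_21415), detected everywhere. Spot intensities were 1062, 537, 1031 and 435 units in high BHB, against 1254, 589, 581 and 304 units in low BHB. The log2 ratios were 0.98, 0.74, 0.18 and 0.22. Here arrays 1 and 2 were the higher ones, the reverse of SCAP, so that the means by dye orientation were 0.86 on arrays 1 and 2 and 0.20 on arrays 3 and 4. The mean over the 4 arrays was 0.53 ± 0.39 (1.44-fold), with a 95% interval of 0.03 to 1.03 and an adjusted p of 0.320 in limma.

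SREBF2, whose product acts mainly on cholesterol genes, had 3 probes, and 2 of them were far above background. The probe EMBV3_05613 had 13605, 7143, 13767 and 7589 intensity units in high BHB, against 8778, 9548, 10006 and 3813 units in low BHB. Its log2 ratios were 1.34, 0.15, 0.17 and 0.73, highest on array 1 and near 0.15 on arrays 2 and 3. The probe EMBV3_37027 had 4284, 7611, 8634 and 14477 units in high BHB and 7238, 6228, 5165 and 6312 units in low BHB, with log2 ratios of 0.21, 0.88, 0.41 and 0.95. It was highest on arrays 2 and 4 and lowest on array 1. The means were nearly equal, 0.60 ± 0.56 and 0.61 ± 0.36 (SD, n = 4 each), with adjusted p of 0.320 and 0.286 in limma, while the array that carried each mean differed. On array 1 the log2 ratio of EMBV3_05613 was 1.13 above that of EMBV3_37027, and on array 2 it was 0.73 lower. The third probe, EMBV3_33652, was detected on 2 arrays in each channel, did not pass the filter and had log2 ratios of -0.25, 0.16, -0.18 and 0.17. All 3 probes report 1 gene and are not replicates. With the measured pair averaged, SREBF2 stood at 0.77, 0.51, 0.29 and 0.84, or 0.60 ± 0.25.

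INSIG1, which retains SCAP in the endoplasmic reticulum and in other tissues is transcribed in step with SREBP activity, was not detected. Its probes EMBV3_18281, EMBV3_36644 and EMBV3_40898 lay under the threshold in both channels on all 4 arrays, at no more than 524, 507 and 394 intensity units. A ratio of such spots compares background with background, so no difference between high and low BHB can be read for INSIG1 at this signal.

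**Figure D2:**
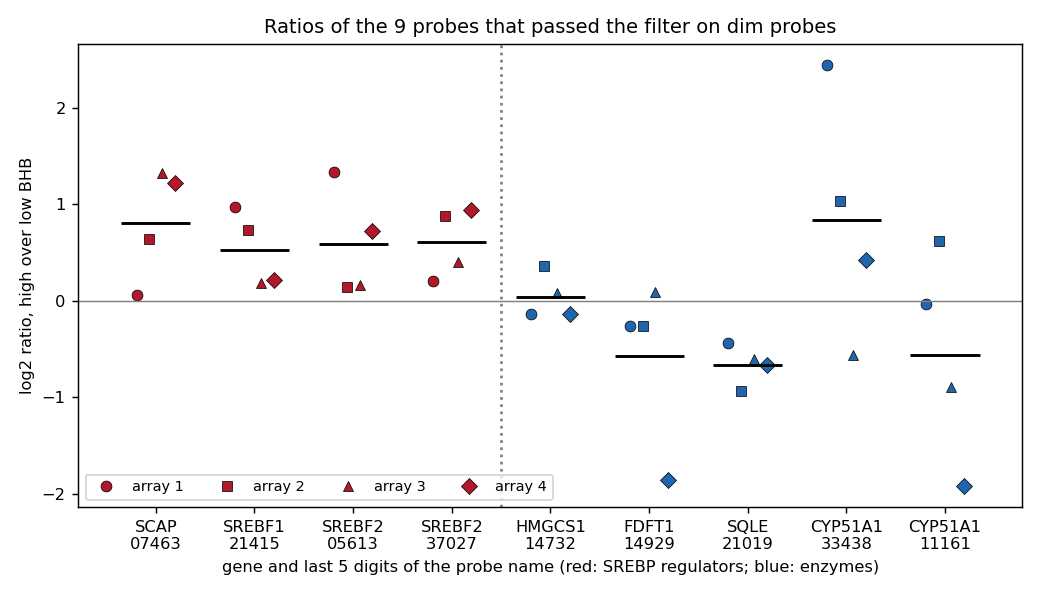
Log2 ratio of high over low BHB on each array for the 9 probes that passed the filter (symbols: arrays 1 to 4; black bars: means). The 4 regulator probes are above 0 on every array and the SQLE probe is below 0 on every array, while the CYP51A1 probes span -1.92 to 2.44.

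HMGCS1 makes HMG-CoA, the precursor that is reduced to mevalonate. Of its 4 probes EMBV3_14732 was detected throughout, with 511, 371, 727 and 917 intensity units in high BHB and 588, 456, 429 and 810 units in low BHB. The log2 ratios were -0.13, 0.36, 0.08 and -0.14. They lay on both sides of 0 within either dye orientation, and the mean of 0.04 ± 0.24 had a 95% interval of -0.41 to 0.50 and an adjusted p of 0.938 in limma. Of the other probes EMBV3_24024 was detected on 1 array in high BHB and 2 in low BHB, and EMBV3_08646 and EMBV3_28348 on none.

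FDFT1, squalene synthase, makes the first step that is committed to sterols. Its probe EMBV3_14929 was detected on all arrays, with 749, 463, 1176 and 343 intensity units in high BHB, against 1635, 767, 719 and 824 units in low BHB. The log2 ratios were -0.26, -0.26, 0.09 and -1.85. Array 4 stood far below the other arrays, and there the high BHB spot was 1.10 times its threshold and the low BHB spot 3.60 times. The mean was -0.57 ± 0.87 with an adjusted p of 0.391 in limma, and without array 4 it was -0.14. The second FDFT1 probe, EMBV3_23196, was detected on 2 arrays in each channel and did not pass the filter.

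SQLE, squalene epoxidase, is often described as a rate-limiting enzyme of the later pathway. Its only probe (EMBV3_21019) was detected throughout, with 571, 371, 835 and 584 intensity units in high BHB, against 1084, 818, 655 and 695 units in low BHB. The log2 ratios were -0.43, -0.94, -0.61 and -0.67. All arrays were on the low BHB side, and the means by dye orientation were -0.68 on arrays 1 and 2 and -0.64 on arrays 3 and 4. The mean of -0.66 ± 0.21 (0.63-fold) had a 95% interval of -1.11 to -0.21 and an adjusted p of 0.252 in limma. In high BHB the spots were 1.23 to 1.88 times the threshold, and in low BHB 1.70 to 3.20 times.

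CYP51A1 removes a methyl group from lanosterol on the way to cholesterol. Its probe EMBV3_33438 had 3870, 2697, 3459 and 2617 intensity units in high BHB and 1951, 2101, 3671 and 1642 units in low BHB. The log2 ratios were 2.44, 1.04, -0.56 and 0.42, with a mean of 0.84 ± 1.26 and an adjusted p of 0.352 in limma. Array 1 carried much of that mean, which was 0.30 without it. The second probe that passed, EMBV3_11161, was detected on 2 arrays in high BHB and on 4 in low BHB, and so passed through low BHB. Its log2 ratios were -0.03, 0.62, -0.90 and -1.92, with a mean of -0.56 ± 1.10 and an adjusted p of 0.469 in limma. Without array 4 that mean was -0.10. The third probe, EMBV3_02333, was detected on no array.

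The CYP51A1 probes differed between the dye orientations, and they disagreed in sign on average. By the source labels, arrays 1 and 2 hold other replicates than arrays 3 and 4, while the titles number the dye-swapped arrays 1 and 2 again. Which reading holds is not settled here. Under the first, a dye effect and a difference between replicates cannot be told apart. EMBV3_33438 averaged 1.74 on arrays 1 and 2 and -0.07 on arrays 3 and 4, and EMBV3_11161 averaged 0.29 and -1.41 on the same pairs. On every array EMBV3_33438 was the higher of the pair, by 2.48, 0.42, 0.34 and 2.34. The dye effect, fitted beside BHB in limma, had an unadjusted p of 0.0132 at EMBV3_33438 and 0.00883 at EMBV3_11161 (adjusted p of 0.992 for both). An unadjusted p under 0.05 for dye in limma was reached by 612 of the 16575 probes tested, and no probe passed the adjusted threshold for dye. With the dye term the unadjusted p of BHB was 0.0193 at EMBV3_33438, against 0.0665 without it, and 0.0562 at EMBV3_11161, against 0.158 without it, and the adjusted p were 0.314 and 0.357. The direction of CYP51A1 therefore depends on the probe.

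Of the 9 member probes tested, 4 were above 0 on all 4 arrays, as were 1584 of all 16575 probes (9.56%). These were the probes of SCAP, SREBF1 and SREBF2. The SQLE probe was the only one of the 9 below 0 on all 4 arrays, and 2307 of all probes (13.9%) were. The same probes had an unadjusted p under 0.05 in limma. Among all probes that threshold was passed upward by 817 (4.93%) and downward by 1661 (10.0%). The adjusted p of these 5 member probes lay between 0.252 and 0.320, so none of them is a call.

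Regulators were then set against enzymes on each array, with every gene at the mean of its probes that passed the filter. The 3 regulators averaged log2 ratios of 0.60, 0.63, 0.60 and 0.76 on arrays 1 to 4, and the 4 enzymes averaged 0.10, 0.00, -0.29 and -0.85. The mean of the regulators thus varied little between arrays (0.65 ± 0.08), and that of the enzymes varied more (-0.26 ± 0.43). The single regulators were less steady, and SCAP and SREBF1 offset each other in their mean. The SD over the arrays was 0.59 for SCAP, 0.39 for SREBF1 and 0.25 for SREBF2. It was 0.24 for HMGCS1, 0.87 for FDFT1, 0.21 for SQLE and 1.02 for CYP51A1. The difference of regulators minus enzymes was 0.51, 0.63, 0.89 and 1.61, with a mean of 0.91 ± 0.49 (SD, n = 4). The enzyme means include the CYP51A1 probe EMBV3_11161, which passed the filter only through low BHB, the group with the higher mean. With CYP51A1 at EMBV3_33438 alone, which was detected in both channels on all arrays, the difference was 0.20, 0.58, 0.85 and 1.32, with a mean of 0.73 ± 0.47. Either way it was above 0 on all 4 arrays and widest on array 4, where FDFT1 was lowest. Without array 4 the first of these means was 0.67. The genes were chosen with earlier results in view, so this difference has no p-value.

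**Figure D3:**
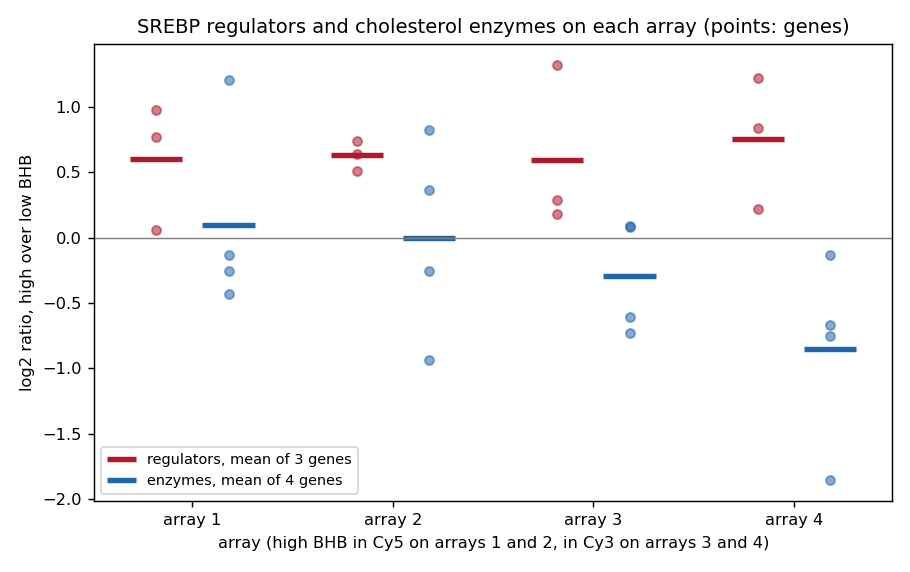
Log2 ratio of high over low BHB on each array for the 3 measured regulators and the 4 enzymes (points: genes; bars: means over genes). The bar of the regulators stays at 0.60 to 0.76, and the bar of the enzymes lies below it on each array, at 0.10, 0.00, -0.29 and -0.85.

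Gene by gene the separation came from HMGCS1, FDFT1 and SQLE. Of the 12 pairs of 1 regulator and 1 enzyme, the regulator had the higher ratio on all 4 arrays in 9, and in the 3 pairs with CYP51A1 on 2 arrays. These pairs reuse the same 7 genes, and the share over pairs of other genes was not computed. For SQLE, below 0 on all arrays, the order follows from the signs alone. On array 3 SREBF1 (0.18) lay close to FDFT1 (0.09). With CYP51A1 at EMBV3_11161 alone the difference of regulators minus enzymes was 1.08, and without the gene 1.04. With all 18 probes used, those of INSIG1 and the others that did not pass the filter included, the difference was 0.62. Even the nearest pair of members, SREBF1 and SREBF2 at their brightest probes, differed by a root mean square of 0.430 over the 4 arrays.

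Over wider lists of the same roles the medians lay closer together, at 0.10 for SREBP regulators and -0.04 for cholesterol synthesis. Of 21 genes listed for cholesterol synthesis 19 had a probe and 15 were tested, each at its brightest tested probe. The median of their mean log2 ratios was -0.04, with 6 above 0 and 9 below, and that of all 7878 named genes tested was also -0.04. 1 gene had an unadjusted p under 0.05 upward (LBR) and 1 downward (SQLE), against 5.72% and 11.6% of all named genes, and none passed the adjusted threshold. The lists were not picked by how their genes moved, but they were drawn up with earlier results of these data known.

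In pathway order, the genes of the mevalonate and isoprenyl steps had small means. ACAT2, which makes acetoacetyl-CoA, averaged -0.03 ± 0.89, with -0.77, -0.28, 1.27 and -0.35 on arrays 1 to 4. The mevalonate kinase MVK averaged 0.08 ± 0.43, and the phosphomevalonate kinase PMVK 0.10 ± 0.26 over 3 arrays, since its spot on array 3 was set aside. IDI1, which isomerises isopentenyl diphosphate, averaged -0.18 ± 0.21. FDPS, which builds farnesyl diphosphate, averaged -0.16 ± 0.54 at its brightest probe and 0.09 at its other tested probe. At these brightest probes none of the 5 had all its arrays on 1 side of 0.

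The genes after lanosterol were also mixed. LBR, a sterol reductase that is also the lamin B receptor of the nuclear envelope, had log2 ratios of 0.45, 0.33, 0.83 and 0.27, all on the high BHB side, with a mean of 0.47 ± 0.25 and an adjusted p of 0.328 in limma. TM7SF2, which catalyses the same reduction, averaged -0.14 ± 0.66. MSMO1, the sterol methyl oxidase, was below 0 on all 4 arrays at its brightest probe (-0.08, -0.25, -0.64 and -0.63), with an adjusted p of 0.370 in limma, and its probe EMBV3_36472, also detected throughout, averaged -0.30. Its other tested probes passed through 1 group only. EMBV3_08198 (detected on 3 arrays in high BHB and 1 in low BHB) averaged 0.11, and EMBV3_19872 (detected on 1 array in high BHB and 4 in low BHB) averaged -0.73. NSDHL averaged -0.04 ± 0.39, the isomerase EBP -0.11 ± 0.65 and the last reductase DHCR7 0.04 ± 0.72. The probes of MVD, LSS, HSD17B7 and SC5D were too dim for the filter, and 2 listed genes were not analysed here.

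**Figure D4:**
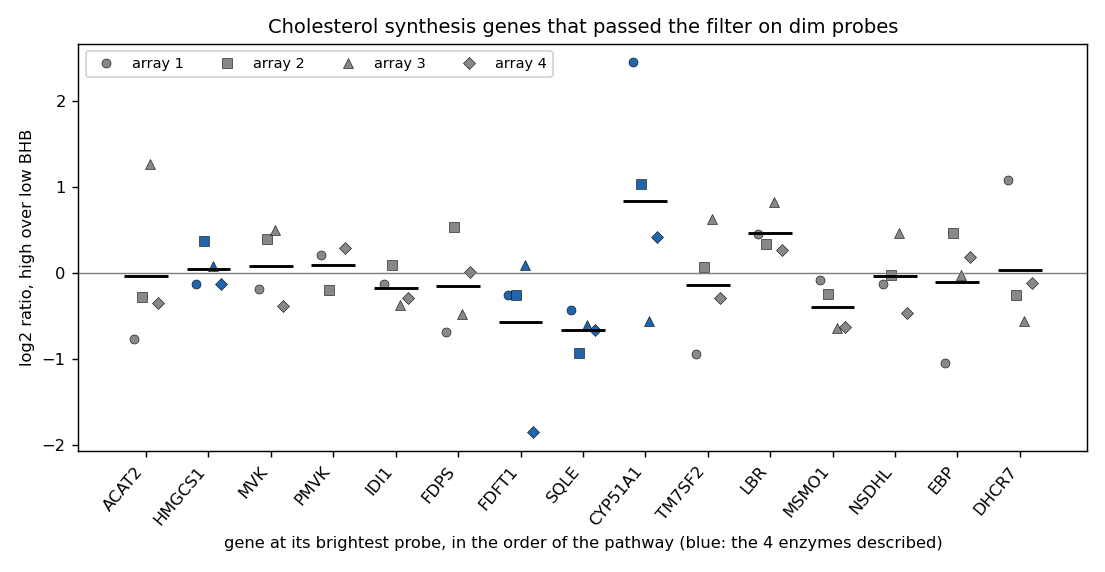
Log2 ratio of high over low BHB on each array for the 15 tested genes of cholesterol synthesis in pathway order, each at its brightest tested probe (symbols: arrays 1 to 4; bars: means; blue: the 4 enzymes described in full). SQLE and MSMO1 lie below 0 and LBR above 0 on all arrays, and the SD over the arrays is largest for CYP51A1, followed by ACAT2 and FDFT1.

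Of 14 genes listed as SREBP regulators 12 had a probe and 7 were tested, with a median of 0.10. SCAP, SREBF1 and SREBF2 were the 3 above 0 on all 4 arrays. RNF139, a ubiquitin ligase of the endoplasmic reticulum that is sensitive to sterols, was on the other side, with log2 ratios of -1.18, -0.22, -0.24 and -0.97 and a mean of -0.65 ± 0.50 (adjusted p of 0.287 in limma). MBTPS1, the protease that makes the first cut in the Golgi, was slightly below 0 on all 4 arrays, at -0.22 ± 0.15. INSIG2, the relative of INSIG1, averaged -0.31 ± 0.65 at its brightest probe, detected on 2 arrays in high BHB and 3 in low BHB. Its other tested probe, detected on 2 arrays in high BHB and 4 in low BHB, averaged -0.0043. Both probes passed the filter only through low BHB. ERLIN2, which takes part in the turnover of sterol-bound proteins, averaged 0.10 ± 0.66. INSIG1, MBTPS2, ERLIN1, PAQR3 and SPRING1 did not pass the filter, and 2 listed genes were not analysed here.

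Each measured member was also matched to the named genes whose 4 log2 ratios lay nearest, by the root mean square difference between brightest tested probes. SCAP lay nearest to LPO (0.110) and ZXDC (0.195), SREBF1 to TNPO3 (0.0870) and CARF (0.0915), and SREBF2 to NR5A2 (0.0350) and CHRNA1 (0.0474). HMGCS1 lay nearest to P4HB (0.0411) and OSR1 (0.0472), FDFT1 to GABARAPL1 (0.145) and TRIT1 (0.180), SQLE to DNAJA3 (0.0732) and NAT9 (0.108), and CYP51A1 to RARG (0.142) and SENP6 (0.194). No member was among the 2 nearest genes of another. With 4 arrays and 7878 genes such matches describe the arrays only.

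Markers of other cells were read on the same arrays. None of 6 cumulus and granulosa markers and none of 4 uterine and oviduct markers with a probe passed the filter, and of 3 sperm markers TNP1 did, with a mean of 0.03. Of 6 blood markers PTPRC and HBA passed. PTPRC had log2 ratios of 0.58, -0.07, 0.34 and 0.84 and up to 40830 intensity units at EMBV3_42792. Its second probe, EMBV3_39355, was detected on no array. The other defining leukocyte genes CD14, ITGAM and CD3E did not pass. The summed spot intensity of the list was 20192 to 44811 units in high BHB and 17915 to 30329 units in low BHB. Of this the probe EMBV3_42792 alone reached 40830 units in high BHB and 28171 units in low BHB. The 3 inner cell mass markers had means below 0 (POU5F1 -0.27, NANOG -0.87 and SOX2 -0.41), and their summed intensity was 3788 to 7625 units in high BHB and 4170 to 11942 units in low BHB. NANOG stood at -3.38 on array 4, the array on which FDFT1 and the dimmer CYP51A1 probe were lowest, while the brighter CYP51A1 probe was at 0.42 there and lowest on array 3. Of the trophectoderm markers, at their brightest tested probes, 4 had means above 0 and 4 below. Those below were KRT8 (-0.33), KRT18 (-0.24), GATA3 (-0.07) and CDX2 (-0.03). Those above were KRT19 (0.81), TFAP2C (0.03), GATA2 and TEAD4. GATA2 was above 0 on all 4 arrays, at 0.51, 0.45, 0.54 and 0.89, with a mean of 0.60 ± 0.20 and an adjusted p of 0.277 in limma. TEAD4 was so too, with a mean of 0.20 ± 0.16. The 8 trophectoderm markers had summed intensities of 48377 to 141122 units in high BHB and 97862 to 119187 units in low BHB, and KRT8 was saturated in at least 1 spot. The hypoblast markers GATA4 and PDGFRA averaged 0.56 and 0.36, and the list summed to 4189 to 7115 units in high BHB and 3348 to 5880 units in low BHB. The part of these markers in the ratios of the sterol genes was not tested.

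The signs of the members held across the processing settings more than their sizes did. Over 14 alternatives, or 13 for the CYP51A1 probe EMBV3_11161, the mean log2 ratio of SCAP ranged from 0.45 to 1.06, that of SREBF1 from 0.14 to 0.64, and those of SREBF2 from 0.28 to 0.85 and from 0.22 to 0.74. SQLE ranged from -0.99 to -0.44 and FDFT1 from -0.97 to -0.14. CYP51A1 ranged from 0.30 to 1.30 at EMBV3_33438 and from -0.95 to -0.10 at EMBV3_11161. The 3 other filters, the dye term and averaging by title number left the means of the member probes as they were. Leaving out 1 array reuses the reported values. The alternatives that recomputed the ratios were the background fit, no background correction, mean intensities, median centring and the deposited ratios. HMGCS1, at 0.04, was the 1 probe of 9 that changed sign. The lowest value of each regulator came with median centring in place of loess, which moved the median of all tested probes to -0.17. Relative to that median SCAP stood at 0.62, SREBF1 at 0.32, SREBF2 at 0.46 and 0.40, and SQLE at -0.82.

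**Figure D5:**
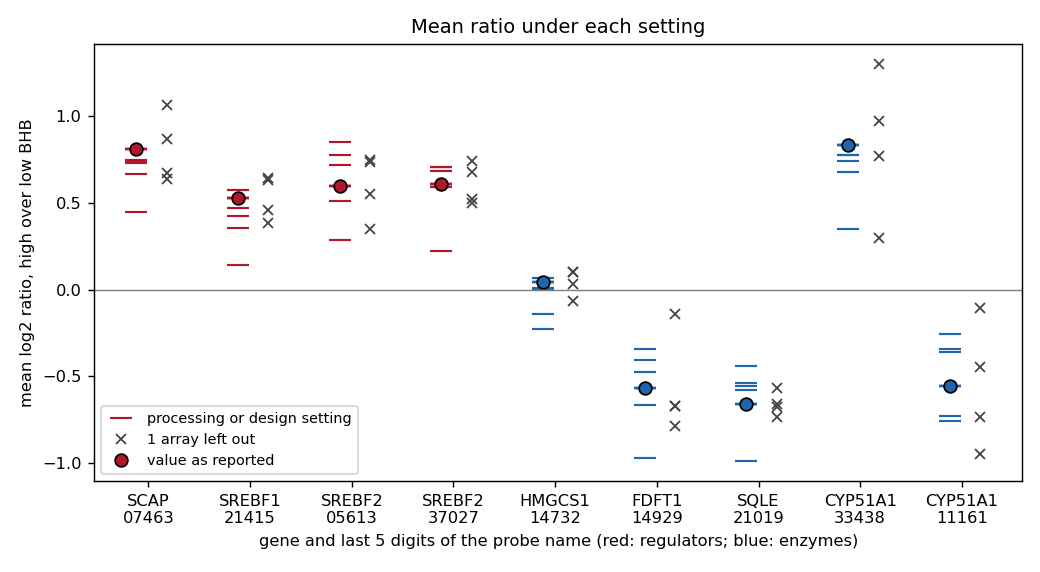
Mean log2 ratio of high over low BHB of the 9 tested probes as reported (circles), under each processing or design alternative (short bars) and with 1 array left out (crosses). The 4 regulator probes stay above 0 and FDFT1 and SQLE below 0 in all of them, and HMGCS1 lies on both sides. The crosses reuse the reported array values, and the other filters, the dye term and averaging by title number leave these means unchanged.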

How the data were processed

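Per the file headers, the deposited scanner files hold the median and mean intensity of each spot and its local background in Cy5 and Cy3, not normalized. The sources used here name no scanner software. A deposited table of the authors holds log2 ratios of the same arrays, high over low BHB and centred near 0. The submitters' processing notes name limma. These were used as an alternative, and 4 columns of a further table of ratios were not used. The ratios reported here correlated with the deposited ones at r = 0.966 to 0.992 per array.

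Median spot intensities were corrected with normexp (offset 50), fitted without the 95 to 114 spots per array set aside by the scanner software, and normalized within each array by loess at a span of 0.3, where control spots and those set aside had weight 0. All ratios run as high over low BHB. Detection used the 153 negative control spots (those set aside left out). In all, 16575 of 43794 probes were tested with limma 3.58.1 (R 4.3.3, intercept only, Benjamini-Hochberg over all tested probes). The fit was first tested on simulated data, with 200 of 16467 probes changed. It recovered 0% of the changed probes at a log2 change of 1, 77% at 2 and 93% at 3. Every tested member probe had a mean smaller in size than 1. A missing call at these probes therefore does not show that high and low BHB were alike there. With 4 arrays, an exact sign-flip test cannot go below p = 0.125 (two-sided), so none was used for single values. The number of arrays limits the precision.

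The platform annotation names 21790 probes with 1 symbol each; 20068 were current in RefSeq (ARS-UCD2.0, used for names alone), 1646 were synonyms and 76 neither. Named were all 8 members with every probe, every tested gene of cholesterol synthesis, the 3 genes of each other pathway list with the smallest p, and the 2 nearest profiles of each member. RNF139 is named by that rule. INSIG2, MBTPS1, ERLIN2, ACLY, SCD, ACSL3, FNTB and the single trophectoderm markers were named after their values were seen. The members and lists were chosen with earlier results of these data known. Alternatives were the background fit, no background correction, mean intensities, median centring, 3 other filters, the deposited ratios, a dye term, averaging of arrays that share a title number, and each array left out. 3 ways of treating CYP51A1 were added after seeing the data.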

Additional observations from a re-analysis of the deposited data

How the results depend on the processing

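Regulators minus enzymes was above 0 on all arrays under the 9 alternatives that changed its ratios or probes, with means of 0.62 to 1.08. The dye term, the threshold of mean plus 2 SD and averaging by title number leave its mean as it was, and leaving out 1 array, which reuses the same values, gave 0.67 to 1.04. The 2 probes at an adjusted p under 0.05 became 1 with no background correction, no filter or a dye term, 0 with mean spot intensities, median centring or normexp fitted on all spots, and 0 to 2 with 1 array left out. When arrays that share a title number were averaged, which leaves 2 replicates, the count was 1167, and SCAP (adjusted p of 0.0212 in limma) and the CYP51A1 probe EMBV3_33438 (0.0171) were among them. The titles alone allow that reading, while the labels number 4 replicates. The 2478 probes at an unadjusted p under 0.05 became 4038 without a filter and 3823 with that averaging, and 1352 (without array 4) to 2477 with 1 array left out. Of those probes 33% were higher in high BHB, 2.66% with median centring. HMGCS1 turned to -0.23 with mean spot intensities and -0.14 with median centring (-0.064 to 0.10 with 1 array left out). Other means near 0 also changed sign. ACAT2 was 0.0017 with no background correction and 0.073 with mean spot intensities, MVK -0.34 with median centring, IDI1 0.057 with mean spot intensities, PMVK -0.023, -0.046 and -0.0012 with normexp on all spots, mean spot intensities and median centring, TM7SF2 0.061 and 0.059 with normexp on all spots and mean spot intensities, and DHCR7 -0.018 and -0.15 with normexp on all spots and median centring. With 1 array left out the means ran from -0.46 to 0.22 for ACAT2, -0.059 to 0.24 for MVK, -0.39 to 0.020 for FDPS, -0.39 to 0.13 for TM7SF2, -0.21 to 0.10 for NSDHL, -0.29 to 0.21 for EBP and -0.31 to 0.24 for DHCR7. The causes were not tested. Each array sets 1 high BHB RNA against 1 low BHB RNA, so the fit on the ratios was already paired within the array. Spots near the threshold, such as those of SQLE and FDFT1 in high BHB, limit how large a ratio can be measured.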

Other observations

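Genes that SREBPs are known to regulate outside cholesterol synthesis were read by the same rule. Of 11 listed fatty acid targets of SREBP1 all had a probe and 6 were tested, 3 with means above 0 and 3 below. Their median log2 ratio of high over low BHB was 0.24, between these groups, against -0.04 for all named genes. FADS2 and FADS1, the desaturases that make polyunsaturated fatty acids, had ratios above 0 on all 4 arrays (FADS2 1.08, 0.68, 0.78 and 0.78; FADS1 1.09, 0.41, 0.21 and 0.62), with means of 0.83 ± 0.17 and 0.59 ± 0.38 and adjusted p of 0.203 and 0.293 in limma. ACLY, which makes cytosolic acetyl-CoA from citrate, was also above 0 on all 4 arrays at 0.54 ± 0.29. The elongase ELOVL6 was below 0 on all 4 at its brightest probe, at -0.68 ± 0.42 (adjusted p of 0.275), while its other tested probes averaged -0.13 and -0.20, the last at a probe that passed the filter only through low BHB. ACSL3, which activates fatty acids, averaged -0.06 at its brightest probe and -0.60 and -0.53 at the others. SCD averaged -0.14 ± 0.63, with ratios of -0.93, 0.07, 0.57 and -0.28. FASN, ACACA, ACSS2, ME1 and GPAM did not pass the filter.

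Of 9 listed genes of the isoprenoid branches, which share farnesyl diphosphate with cholesterol synthesis, 7 were tested, with a median of -0.28. PDSS1, which builds the side chain of coenzyme Q, was below 0 on all 4 arrays at -0.82 ± 0.38 (adjusted p of 0.223 in limma). GGPS1, which makes geranylgeranyl diphosphate, had -0.66, -0.88, -0.43 and -2.00, with a mean of -0.99 ± 0.70 (adjusted p of 0.223), lowest on array 4. FNTA, the shared subunit of the prenyl transferases, averaged -0.52 ± 0.45, and FNTB, its farnesyl transferase partner, was above 0 on all 4 arrays at 0.42 ± 0.15. Of 17 listed genes of sterol uptake, transport and efflux, 14 had a probe and 8 were tested, with a median of 0.10, and none had an unadjusted p under 0.05. The smallest p were those of the apolipoprotein APOE at 0.36 ± 0.43, the sterol acyltransferase SOAT1 at -0.24 ± 0.18 and the oxysterol receptor NR1H3 at 0.17 ± 0.25. None of these genes passed the adjusted threshold in limma.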
